A study of Mus musculus with 6 samples.

Results

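The endoplasmic reticulum (ER) chaperones and the genes of the unfolded protein response were followed in pancreatic islets of Ucn3 null and wild-type mice. The set was a fixed list of 33 gene symbols, and each symbol was represented by the transcript with the highest mean level over the 6 libraries. All 33 were in the table, among 21813 gene symbols in all. The groups were 3 Ucn3 null mice and 3 wild-type littermates, all of them males aged 3 months, with the RNA of 1 animal in each library. Urocortin 3, the peptide encoded by Ucn3, is made by mature beta cells. The labels give neither the strain nor how the null allele was made. They describe mixed islet cells, yet a sorting step appears in the extraction protocol, and the libraries are read here as whole islets. Levels are in RPKM, read counts divided by transcript length and by library depth.

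The ER is where secreted proteins such as insulin are folded, given disulfide bonds and checked before export. When unfolded protein builds up, the sensors IRE1, PERK and ATF6 start the unfolded protein response. ATF6 and the spliced form of XBP1 raise chaperones and degradation factors, while PERK slows translation and favours the synthesis of ATF4, which in turn raises CHOP, the product of Ddit3. Beta cells carry a heavy folding load because insulin makes up so much of what they synthesise, and human and mouse mutations in PERK or wolframin cause diabetes.

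Ucn3 itself averaged 1.68 ± 0.10 RPKM in Ucn3 null islets and 149 ± 11.6 RPKM in wild-type islets (SD, n = 3 each), so every library matched its label. Depth estimated from the steps between low values was 46490000 to 51880000 reads in the null libraries and 42540000 to 48440000 reads in the wild-type libraries. Across the 12652 genes tested, the correlation of log2 levels between pairs of libraries was 0.955 to 0.989. Ins2, the main insulin gene of beta cells, was at 184445 to 202333 RPKM in null and at 202206 to 232411 RPKM in wild-type libraries. These ranges overlapped narrowly, and the beta cell markers Ins1, Iapp, Mafa, Pdx1, Slc2a2, G6pc2 and Slc30a8 overlapped as well. Nkx6-1, another beta cell marker, lay wholly higher in null, at 63.6 to 75.1 RPKM against 56.0 to 61.4 RPKM in wild-type libraries. Markers of acinar cells, the enzyme-making exocrine cells around islets, varied widely between libraries. Summed over 20 markers, they reached 25409, 14820.5 and 5238 RPKM in Ucn3 null replicates 1 to 3, against 7024, 577 and 2697 RPKM in wild-type replicates 1 to 3. All 20 acinar markers were higher on average in null islets, none past an adjusted p of 0.05 in limma and all 20 at an unadjusted p under 0.05. The delta cell hormone gene Sst was at 643 to 1035 RPKM in null and 1676 to 2320 RPKM in wild-type libraries (limma adjusted p = 0.336). The other tested delta cell markers, Hhex and Rbp4, did not pass either, with limma adjusted p of 0.0671 and 0.277 and lower means in null islets. The 8 ductal markers summed to 157 to 205 RPKM in null and 205 to 273 RPKM in wild-type libraries. None of the acinar, delta or ductal markers was at 0. In bulk RNA, fewer cells of a type and less RNA per cell cannot be told apart.

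The ER stress response element (ERSE) is a promoter sequence bound by ATF6 together with the factor NF-Y. RefSeq promoter sequences (build GRCm38.p6, 250 bases before to 50 bases after each start) were found for 29 of the 33 genes. Those of Hyou1, Manf, Atf6 and Derl1 were not used here. The exact ERSE letters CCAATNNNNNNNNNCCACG, sought on both strands, were present in 10 of the 29 promoters and in 37 of the promoters of 27025 genes (0.137%). The 10 genes were Hspa5, Hsp90b1, Calr, Canx, Creld2, Dnajc3, Pdia6, Ero1lb, Derl3 and Syvn1. The related ERSE-II, ATTGGNCCACG, was in Herpud1 and Dnajb11 and in 0.0444% of all genes. An element bound by ATF4, TTGCATCA, was in Herpud1 alone among the 29 and in 1.03% of all genes. The element TGACGTGG, known as UPRE, was in none of the 29 and in 0.714% of all genes. Its last 5 letters are the reverse complement of the ERSE's CCACG, so these motifs share letters. The stretches show matches of chaperones, disulfide bond enzymes and degradation genes whose levels are given further on, with the fixed letters of each match in capitals.
Hspa5, chr2:34772010-34772058, + strand: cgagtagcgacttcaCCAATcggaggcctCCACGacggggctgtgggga
Hsp90b1, chr10:86705518-86705671, − strand: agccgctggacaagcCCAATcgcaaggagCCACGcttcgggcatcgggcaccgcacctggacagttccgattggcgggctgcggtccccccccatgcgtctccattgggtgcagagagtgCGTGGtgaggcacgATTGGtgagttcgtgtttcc
Pdia6, chr12:17266476-17266524, + strand: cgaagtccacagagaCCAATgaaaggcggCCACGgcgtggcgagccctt
Ero1lb, chr13:12565667-12565715, + strand: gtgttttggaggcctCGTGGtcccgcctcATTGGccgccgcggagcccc
Syvn1, chr19:6046517-6046565, + strand: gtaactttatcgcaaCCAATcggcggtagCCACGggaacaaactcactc
Herpud1, chr8:94386302-94386402, + strand: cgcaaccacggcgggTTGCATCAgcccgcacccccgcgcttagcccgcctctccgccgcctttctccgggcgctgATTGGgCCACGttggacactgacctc
Each is given 5′ to 3′ on the gene's strand. Hsp90b1 holds 2 ERSE matches in opposite orientations, and the match of Ero1lb lies on the opposite strand, so it reads as CGTGG and ATTGG. In Herpud1 the first capitals mark the ATF4 element and the later ones ERSE-II. A match describes the letters only and is no evidence of binding.

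Many transcripts of the ER folding machinery were abundant in islets of both genotypes. On the RPKM scale, which allows genes to be compared per length, 17 of the 33 genes lay above the 95th percentile of all tested genes. They included Herpud1, Xbp1, Atf4, Ddit3 and Ppp1r15a, which are not chaperones, isomerases or oxidases. Among the chaperones, isomerases and oxidases the lowest was Ero1l, at the 68.4th percentile. Hspa5, which encodes BiP, the main ER chaperone and the repressor of the stress sensors, was the highest. It was at 387, 399 and 466 RPKM in null libraries, against 453, 496 and 391 RPKM in wild-type libraries. Next by mean level came Hsp90b1, Ero1lb, Calr, P4hb and Pdia3, each between 192 and 295 RPKM in every library. The sensors stood much lower, with Atf6 and Eif2ak3 between 9.87 and 11.97 RPKM in every library. Trib3, a pseudokinase induced by ATF4 and CHOP, was the lowest member at 1.20 to 3.01 RPKM. For the 28 genes with a transcript length the fewest reads behind a value were about 118, for Trib3.

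**Figure D1:**
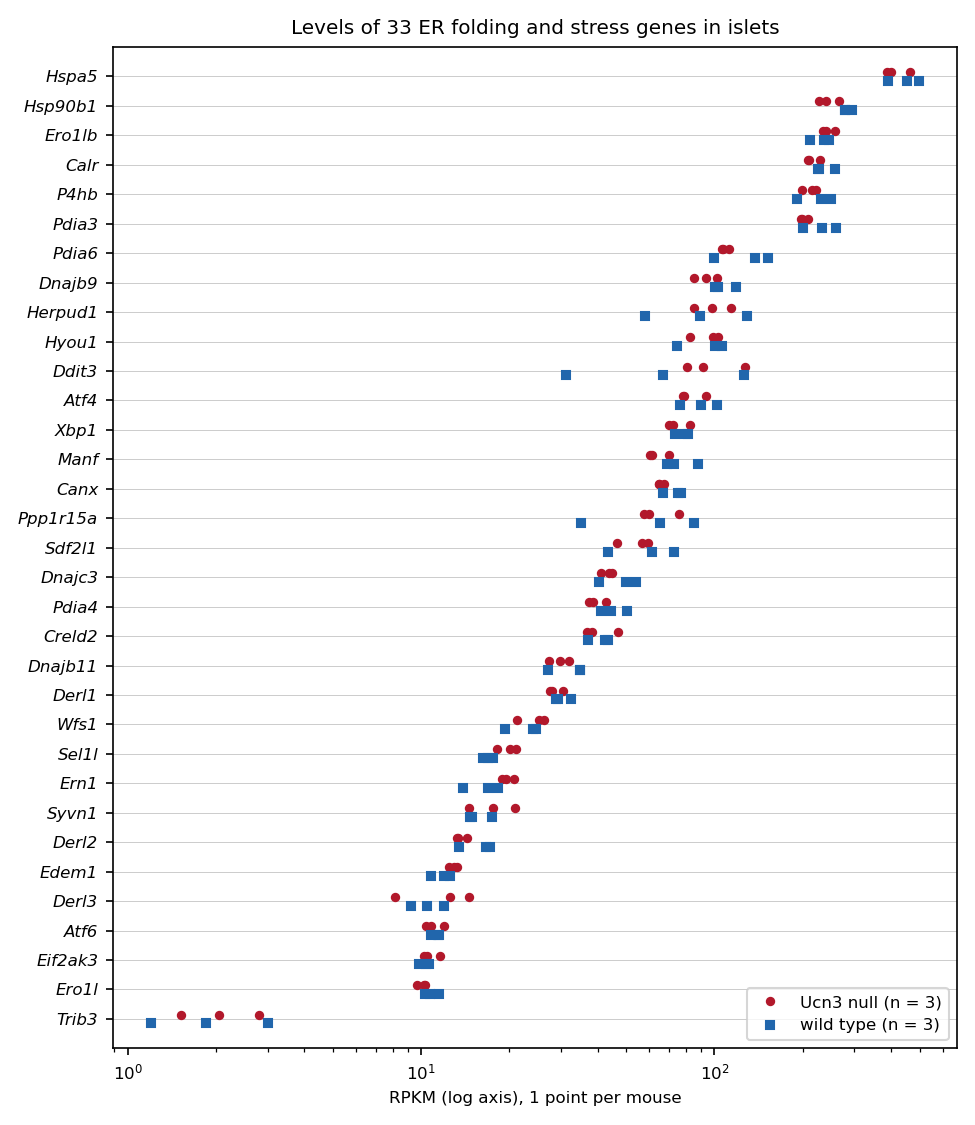
RPKM of the 33 genes on a log axis, 1 point per mouse, with Ucn3 null as red circles above wild type as blue squares (n = 3 each), ordered by mean level. The levels run from 1.20 RPKM for Trib3 to 496 RPKM for Hspa5, and the groups overlap for 30 of the 33 genes.

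None of the 33 genes passed an adjusted p of 0.05 in limma, against 2 of 12652 tested genes (0.0158%), Ucn3 and Marcksl1-ps4. The smallest adjusted p among them was 0.486, for Sel1l. At an unadjusted p under 0.05 limma counted 2 members, Sel1l and Ern1, both higher in null islets, beside 9.36% of all tested genes. That count of members was 10 without wild type replicate 1, 8 of them lower in null islets, beside 12.9% of all tested genes in the same fit. It was 2 without Ucn3 null replicate 3, both lower in null islets, beside 10.1% of all tested genes. It was 3 without Ucn3 null replicate 1 and 1 without wild type replicate 3, beside 7.98% and 7.63%. It was 0 without Ucn3 null replicate 2 and without wild type replicate 2, beside 3.45% and 4.51%. The null values lay wholly above the wild-type values for Sel1l and Ern1, beside 1.9% of all tested genes. They lay wholly below for Hsp90b1, beside 13.2% of all tested genes. This lean of all genes depended on the scaling, since under median-ratio scaling 7.94% lay wholly above and 8.13% wholly below. With 3 animals against 3, an exact two-sided permutation test of 1 gene cannot go below 0.1. Of the 33 differences (null minus wild type, log2(RPKM + 1)), 20 were negative (60.6%) and 13 positive, beside 61.7% negative among all tested genes. Their median was -0.07, beside -0.03 for all tested genes. The median was 0.006 without wild type replicate 2 and 0.108 with the acinar marker mean as a covariate. Under median-ratio scaling it was -0.024, with 18 of the 33 differences negative and 15 positive, beside a median of 0.005 for all tested genes. Ratios of mean RPKM, null over wild type, ran from 0.835 for Manf to 1.34 for Ddit3. The 95% interval included 0 for 31 of the 33 genes. Its width differed between genes, from -0.25 to 0.06 for Ero1l to -0.44 to 1.64 for Ddit3.

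**Figure D2:**
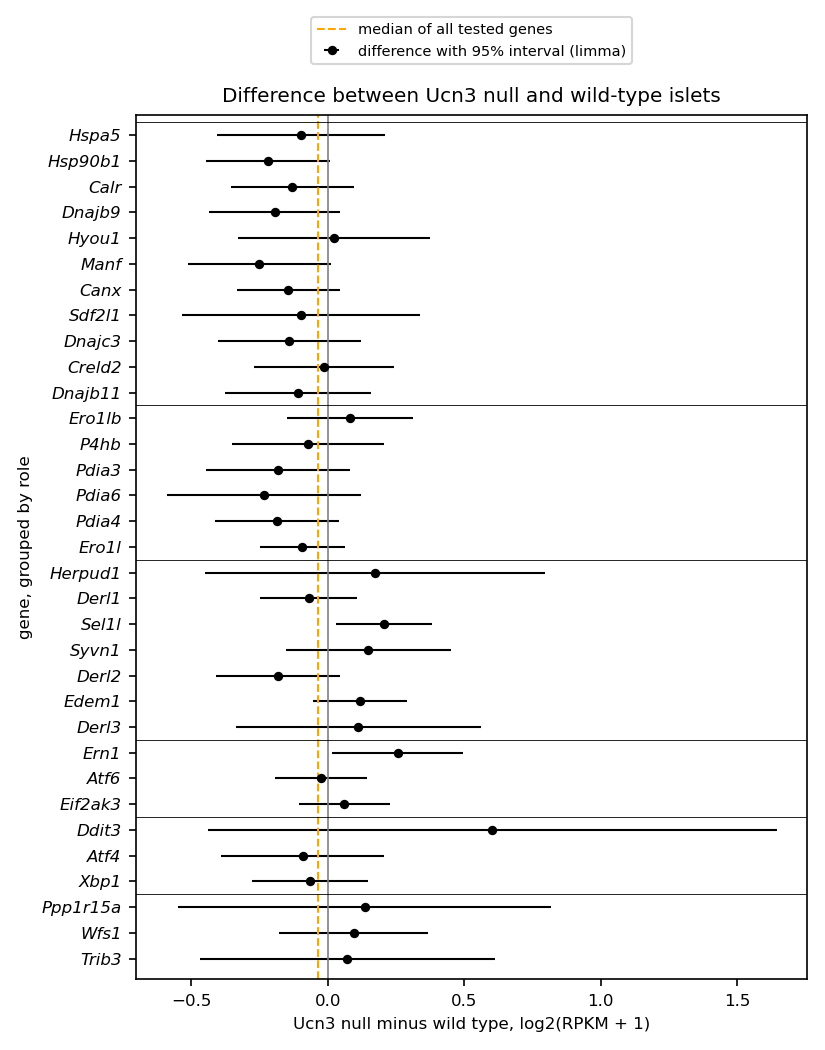
Difference between Ucn3 null and wild-type islets on the log2(RPKM + 1) scale for each gene, grouped by role, with limma's 95% interval (n = 3 each). The dashed line is the median of all tested genes at -0.03, and the intervals of Sel1l and Ern1 alone do not include 0.

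Of the 11 chaperones and co-chaperones, 10 had a negative difference (90.9%), beside 61.7% of all tested genes. None passed the threshold, and their median was -0.13. Hsp90b1, the ER member of the HSP90 family, was at 239, 227 and 266 RPKM in null libraries and at 278, 295 and 278 RPKM in wild-type libraries. Every null value was below every wild-type value, with a log2 difference of -0.22 (SE 0.10, limma adjusted p = 0.536). Manf, a secreted ER protein that protects beta cells, was at 60.1, 61.1 and 70.2 RPKM in null and at 69.0, 87.6 and 72.5 RPKM in wild-type libraries. The Manf groups overlapped through null replicate 3 and wild type replicate 1 (log2 difference -0.25, SE 0.11, limma adjusted p = 0.536). Hspa5 overlapped broadly, with a log2 difference of -0.10 (SE 0.13, limma adjusted p = 0.866). Calr and Canx encode calreticulin and calnexin, the lectin chaperones that hold glycoproteins in the folding cycle. Calr averaged 216 ± 11.5 RPKM in null and 237 ± 17.5 RPKM in wild-type islets, and Canx 65.6 ± 1.57 RPKM in null and 72.7 ± 5.41 RPKM in wild-type islets (SD, n = 3 each). Dnajb9, a co-chaperone of BiP, averaged 93.5 ± 8.53 RPKM in null and 107 ± 9.59 RPKM in wild-type islets (SD, n = 3 each). Hyou1, which exchanges the nucleotide of BiP, was the 1 chaperone with a positive difference, at 94.7 ± 10.7 RPKM in null and 93.9 ± 16.9 RPKM in wild-type islets (SD, n = 3 each). Dnajb11, Dnajc3, Sdf2l1 and Creld2 also overlapped between the groups, with ratios of means from 0.899 to 0.993. Summed over the 11 genes, the level was 1291, 1310 and 1486 RPKM in null libraries and 1426, 1642 and 1425 RPKM in wild-type libraries.

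The protein disulfide isomerases form and rearrange disulfide bonds, and the ERO1 oxidases supply them with oxidising power. Their sum over 6 genes was 784, 825 and 837 RPKM in null libraries, against 753, 957 and 902 RPKM in wild-type libraries, with the lowest library in wild type. Ero1lb, the oxidase enriched in pancreas, was at 234, 258 and 241 RPKM in null and at 211, 236 and 246 RPKM in wild-type libraries. Its groups overlapped (log2 difference 0.08, SE 0.10, limma adjusted p = 0.841). Its relative Ero1l was far lower, at 10.1 ± 0.34 RPKM in null and 10.8 ± 0.60 RPKM in wild-type islets (SD, n = 3 each). Pdia3, which works with the calnexin cycle, was at 197, 199 and 208 RPKM in null libraries and at 200, 259 and 232 RPKM in wild-type libraries. Only wild type replicate 1 fell within the null range (log2 difference -0.18, SE 0.11, limma adjusted p = 0.650). Pdia4 was at 37.3, 38.6 and 42.8 RPKM in null and at 41.0, 50.5 and 44.3 RPKM in wild-type libraries (log2 difference -0.19, SE 0.10, limma adjusted p = 0.591). Pdia6, which can attenuate IRE1 signalling, varied most among the 6, mainly between wild-type animals. It was at 107, 106 and 112 RPKM in null libraries and at 99.4, 152 and 137 RPKM in wild-type libraries. P4hb averaged 212 ± 12.5 RPKM in null and 224 ± 29.4 RPKM in wild-type islets (SD, n = 3 each).

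ER-associated degradation returns misfolded proteins to the cytosol for the proteasome. Of its 7 genes, 5 had a positive and 2 a negative difference (28.6% negative, beside 61.7% of all tested genes), none past the threshold. Sel1l is the scaffold of the ubiquitin ligase encoded by Syvn1. It was at 18.2, 20.1 and 21.1 RPKM in null libraries and at 17.0, 16.3 and 17.6 RPKM in wild-type libraries. Every null value was above every wild-type value, though the gap was narrow, with a log2 difference of 0.21 (SE 0.08, limma adjusted p = 0.486). Syvn1 was at 14.6, 17.6 and 20.8 RPKM in null libraries and at 17.5, 14.7 and 14.9 RPKM in wild-type libraries, so its lowest and its highest value were both in null islets. Derl1, Derl2 and Derl3 encode derlins, membrane proteins of the export channel. Derl2 was at 13.3, 13.4 and 14.3 RPKM in null libraries and at 13.4, 17.1 and 16.6 RPKM in wild-type libraries (log2 difference -0.18, SE 0.10, limma adjusted p = 0.60). Derl3 differed mainly among null animals, at 8.13, 12.6 and 14.6 RPKM, against 9.25, 11.98 and 10.5 RPKM in wild-type libraries. Its log2 difference of 0.11 was -0.05 without null replicate 3. Derl1 averaged 28.7 ± 1.61 RPKM in null and 30.2 ± 1.86 RPKM in wild-type islets, and Edem1, which directs trimmed glycoproteins to degradation, 12.9 ± 0.41 RPKM in null and 11.8 ± 0.91 RPKM in wild-type islets (SD, n = 3 each).

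Among the sensors, Ern1 encodes IRE1, the kinase and nuclease that splices Xbp1 mRNA. It was at 18.8, 19.5 and 20.7 RPKM in null libraries and at 18.3, 13.9 and 16.9 RPKM in wild-type libraries. The lowest null value stood just above wild type replicate 1, with a log2 difference of 0.26 (SE 0.10, limma adjusted p = 0.520). Eif2ak3, which encodes PERK, was at 10.5, 10.2 and 11.6 RPKM in null and at 9.87, 10.4 and 10.7 RPKM in wild-type libraries (log2 difference 0.06, SE 0.07, limma adjusted p = 0.836). Atf6 averaged 11.05 ± 0.82 RPKM in null and 11.2 ± 0.40 RPKM in wild-type islets (SD, n = 3 each). Null replicate 3 was the highest of the 6 libraries for all 3 sensors, as it was for 26.4% of all tested genes.

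Ddit3, Herpud1 and Ppp1r15a differed widely between animals of 1 genotype. Ddit3, which encodes the pro-apoptotic factor CHOP, was at 80.6, 91.7 and 127 RPKM in null libraries and at 126, 66.7 and 31.2 RPKM in wild-type libraries. The wild-type animals spanned a 4.04-fold range that enclosed 2 of the 3 null values (log2 difference 0.60, SE 0.45, limma adjusted p = 0.715). The Ddit3 difference was 0.09 without wild type replicate 3 and 1.08 without wild type replicate 1. Herpud1, an ER membrane protein of the degradation machinery, was at 98.3, 85.5 and 114 RPKM in null libraries and at 129, 89.2 and 57.8 RPKM in wild-type libraries. Both of its extremes were wild-type animals (log2 difference 0.17, SE 0.27, limma adjusted p = 0.889). Ppp1r15a encodes GADD34, which lets translation resume by directing dephosphorylation of eIF2α. It was at 59.7, 57.3 and 75.4 RPKM in null libraries and at 84.9, 65.1 and 35.0 RPKM in wild-type libraries (log2 difference 0.14, SE 0.29, limma adjusted p = 0.925). Herpud1 and Ppp1r15a had a negative difference without wild type replicate 3, at -0.12 and -0.22. Wild type replicate 3 was the lowest library for Ddit3, Herpud1 and Ppp1r15a, which are grouped here for their spread. It was the lowest for 5 of the 33 genes (15.2%), beside 5.43% of all tested genes. Wild type replicate 1 and null replicate 3 were the highest 2 for Ddit3, Herpud1 and Ppp1r15a. Trib3, also lowest in wild type replicate 3, was highest in wild type replicate 2.

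Atf3, a stress-induced factor outside the 33 genes, was highest in wild type replicate 1, as were Herpud1 and Ppp1r15a, and lowest in wild type replicate 3. It was at 143, 58.6 and 99.7 RPKM in null libraries and at 204, 106 and 47.5 RPKM in wild-type libraries. Herpud1, Ddit3, Ppp1r15a and Trib3 were the 4 members with at least a 2-fold range over the 6 libraries, from 2.24 to 4.07-fold. Trib3 was at 1.52, 2.05 and 2.80 RPKM in null and at 1.85, 3.01 and 1.20 RPKM in wild-type libraries. Its log2 difference of 0.07 was -0.08 without null replicate 3 and -0.13 without wild type replicate 3. The other 29 spanned 1.15 to 1.79-fold, and the median tested gene spanned 1.29-fold. The within-group SD of these 4 lay above the 95th percentile of all tested genes. Ddit3 stood at the 99.0th percentile.

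**Figure D3:**
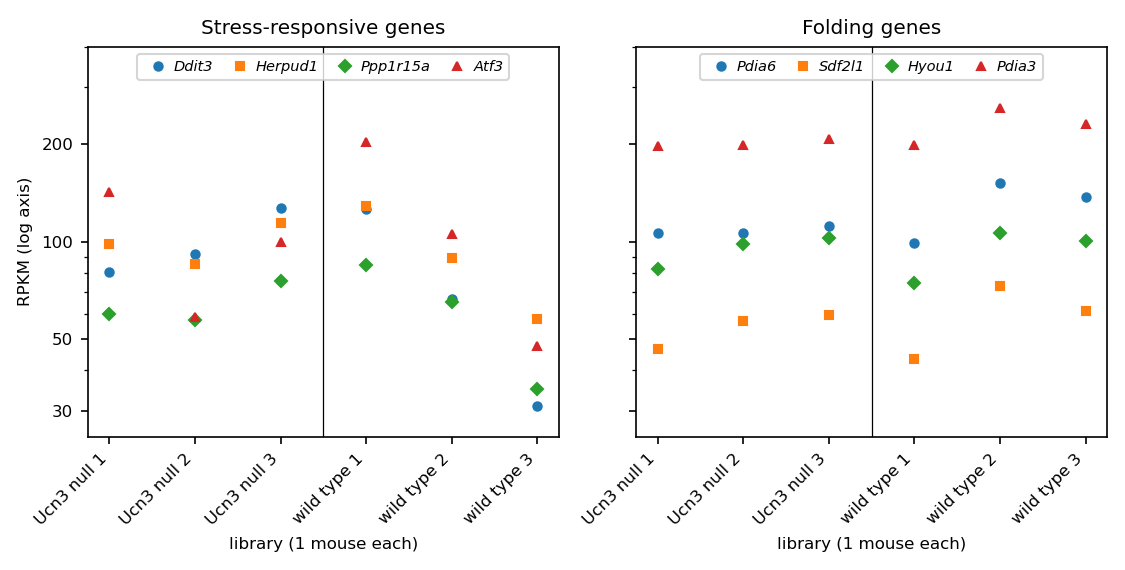
RPKM on a log axis by library, with Ucn3 null replicates left of wild-type replicates, for Ddit3, Herpud1, Ppp1r15a and Atf3 (left) and for the folding genes Pdia6, Sdf2l1, Hyou1 and Pdia3 (right). The genes on the left are lowest in wild type replicate 3, and those on the right are highest in wild type replicate 2. Those on the right do not stand for all folding genes, since Creld2, Dnajb11, Ero1l and Ero1lb were highest in other libraries.

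Atf4 and Xbp1 did not share that spread. Atf4 was at 78.9, 78.2 and 93.8 RPKM in null and at 89.9, 102 and 76.2 RPKM in wild-type libraries (log2 difference -0.09, SE 0.13, limma adjusted p = 0.871). Its difference was 0.01 without wild type replicate 2. Xbp1 averaged 74.8 ± 6.84 RPKM in null and 78.2 ± 4.16 RPKM in wild-type islets (SD, n = 3 each). The table holds 1 row for Xbp1, so spliced and unspliced mRNA were not told apart. ATF4 is controlled mainly at translation and PERK and IRE1 by phosphorylation, which mRNA levels do not show. Wfs1 encodes wolframin, an ER membrane protein lost in Wolfram syndrome. It was at 21.2, 26.2 and 25.3 RPKM in null and at 19.4, 24.6 and 24.0 RPKM in wild-type libraries (log2 difference 0.09, SE 0.12, limma adjusted p = 0.847), and its difference was -0.01 without wild type replicate 1.

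The folding genes showed another pattern across animals. Wild type replicate 2 was the highest library for 17 of the 33 genes (51.5%), beside 18.3% of all tested genes, and for 9 of the 11 chaperones. It was the highest for 6 of the 10 genes with an ERSE match (60%, beside the 51.5% of all 33). These were Pdia6 and the chaperones Hspa5, Hsp90b1, Calr, Canx and Dnajc3, which are among the 9. Null replicate 1 and wild type replicate 1 were each the lowest for 10 of the 33 genes. Of all tested genes, 34.7% were lowest in null replicate 1 and 8.01% in wild type replicate 1. The median deviation of the 11 chaperones from each gene's own mean was -0.14, -0.11 and 0.03 in null replicates 1 to 3 on the log2(RPKM + 1) scale. In wild-type replicates 1 to 3 it was -0.01, 0.18 and 0.08. The mean log2(RPKM + 1) of the 20 acinar markers was 8.91, 8.23 and 6.85 in null replicates 1 to 3 and 7.14, 4.02 and 5.91 in wild-type replicates 1 to 3. From the library with the most acinar signal to the one with the least, the chaperone median went up at each step. The medians of the isomerases and oxidases and of the translocon genes did not, since both were lower in wild type replicate 1 than in null replicate 2. In the same order of libraries the median of all tested genes was -0.071, -0.035, 0.027, 0.046, 0.041 and -0.008. It too went up at each step as far as null replicate 3, and then went down. With the acinar mean as a covariate in limma, 29 of the 33 differences were positive, none past the threshold, and 4 had an unadjusted p under 0.05, which were Derl3, Hyou1, Sdf2l1 and Wfs1. In that fit 3.7% of all tested genes had an unadjusted p under 0.05, and the median difference of all genes was negative, at -0.02. The acinar mean was itself higher on average in null islets, so with 6 libraries this fit cannot fully separate the covariate from the group. The part of acinar RNA in the spread of the folding genes was not tested beyond this covariate.

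**Figure D4:**
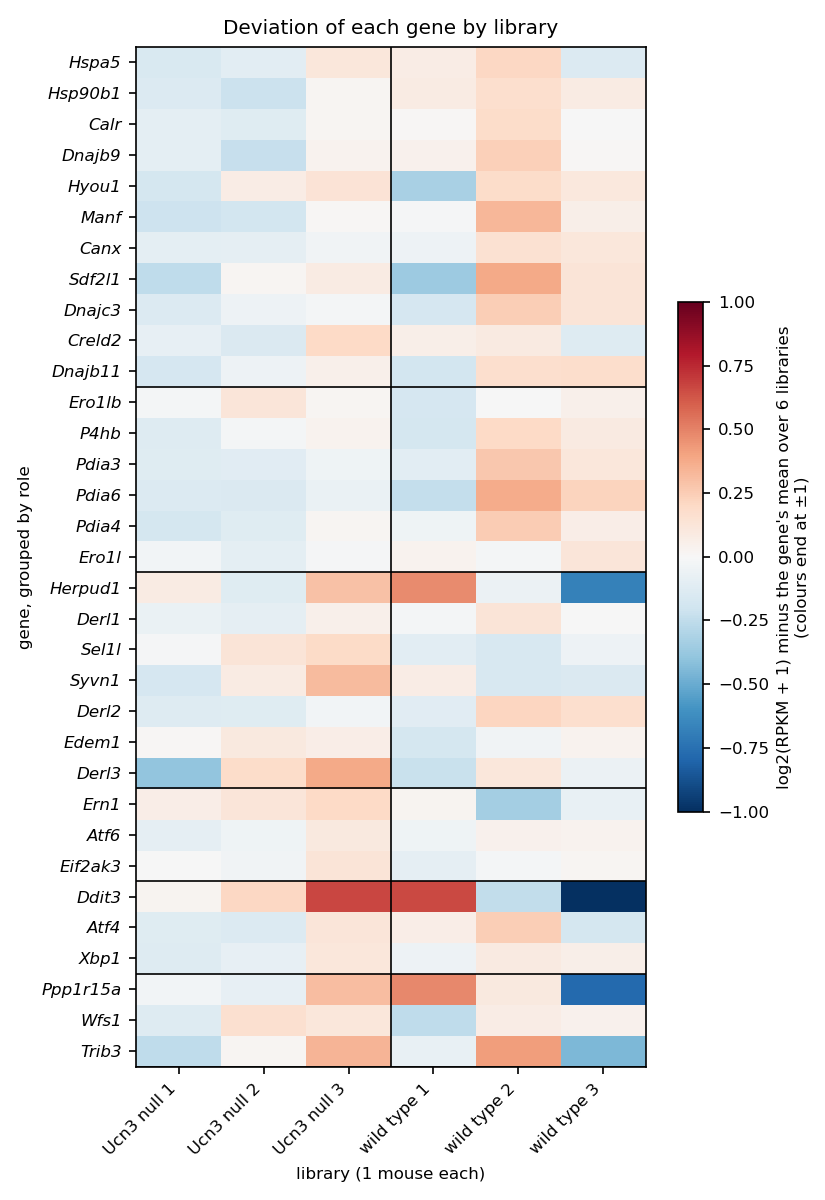
Deviation of each gene in each library from its mean over the 6 libraries, in log2(RPKM + 1), with Ucn3 null replicates left of wild-type replicates and genes grouped by role. Most chaperones and isomerases are red in wild type replicate 2, while Ddit3, Herpud1 and Ppp1r15a are blue in wild type replicate 3, where Ddit3 falls past the end of the colours at -1.32.

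**Figure D5:**
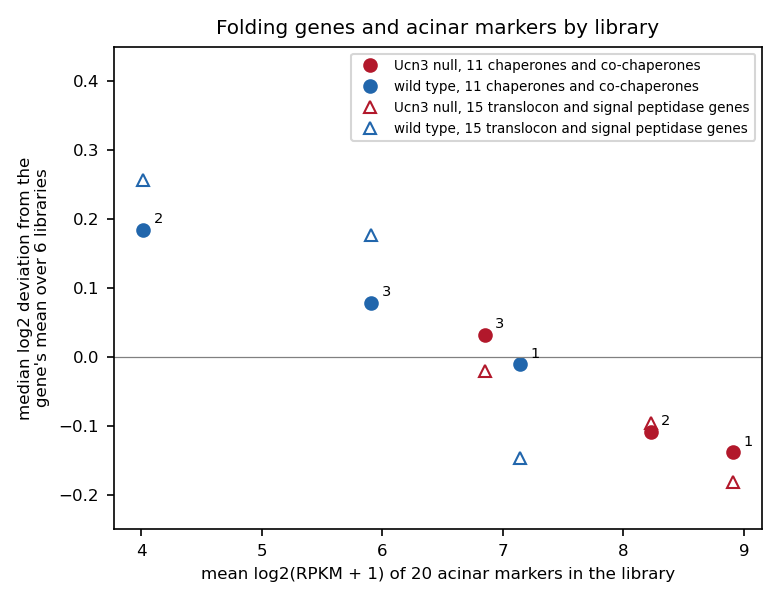
Median deviation of 11 chaperones (filled circles, numbered by replicate) and 15 translocon and signal peptidase genes (open triangles) in each library, against the mean log2(RPKM + 1) of 20 acinar markers, with Ucn3 null in red and wild type in blue. The chaperone median runs from -0.14 in null replicate 1, with an acinar mean of 8.91, to 0.18 in wild type replicate 2, with an acinar mean of 4.02. The median of all tested genes, not drawn, was -0.071 in null replicate 1 and -0.008 in wild type replicate 2.

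Other genes of ER protein handling, were taken from 7 lists of 110 symbols. All 108 found in the table were tested and none passed in limma, while 9 had an unadjusted p under 0.05, 1 higher and 8 lower in null islets. That is 9 of 108, beside 9.36% of all tested genes, of which 185 were higher and 999 lower. Values did not overlap for 2 of the 108 that were higher and 10 that were lower in null islets, beside 1.9% and 13.2% of all tested genes. The median difference of the 108 was -0.06, with 80 negative (74.1%) and 28 positive, beside 61.7% negative among all tested genes. The translocon and signal peptidase genes, which bring new proteins into the ER, had a median of -0.19, and 14 of 15 were negative. Ssr4, a subunit of the translocon-associated complex, averaged 156 ± 11.99 RPKM in null and 188 ± 32.8 RPKM in wild-type islets, and Sec61b, a subunit of the channel, 94.97 ± 3.43 RPKM in null and 115 ± 17.7 RPKM in wild-type islets (SD, n = 3 each). Wild type replicate 2 was the highest library for 13 of these 15 genes.

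Among 20 further foldases, 18 differences were negative (90%, beside 61.7% of all tested genes), with a median of -0.12. Serp1, which stabilises membrane proteins in the translocon, averaged 83.5 ± 5.05 RPKM in null and 94.4 ± 12.4 RPKM in wild-type islets, and Fkbp2, a prolyl isomerase, 69.1 ± 6.10 RPKM in null and 79.8 ± 14.4 RPKM in wild-type islets (SD, n = 3 each). Of the 11 genes of N-glycosylation and glycan trimming, 8 were negative, with a median of -0.06. Rpn2 and Ddost, subunits of the oligosaccharyltransferase, averaged 108 ± 9.18 and 93.1 ± 6.61 RPKM in null islets, against 109 ± 15.9 and 100 ± 16.0 RPKM in wild-type islets (SD, n = 3 each). Of the 19 other degradation genes, 16 were negative, with a median of -0.03. Selk, which encodes a selenoprotein of the ER membrane, averaged 81.0 ± 5.66 RPKM in null and 85.7 ± 8.40 RPKM in wild-type islets. Vcp, the ATPase that pulls proteins out of the membrane, averaged 43.9 ± 3.27 RPKM in null and 47.3 ± 6.59 RPKM in wild-type islets (SD, n = 3 each).

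The 12 other stress transcription factors and proteases had 5 positive and 7 negative differences (58.3% negative, beside 61.7% of all tested genes). Nupr1, a small stress-induced nuclear protein, was at 67.3, 54.2 and 69.6 RPKM in null libraries and at 38.4, 50.3 and 43.0 RPKM in wild-type libraries. All null values were above all wild-type values, as they also were for Itpr3 among the 108 (Nupr1 log2 difference 0.53, SE 0.13, limma adjusted p = 0.486). Acinar markers were also higher on average in null islets, and their part in this difference was not tested. Of the 19 other genes of the integrated stress response, 8 were positive and 11 negative, with a median of -0.01. Asns, the asparagine synthetase induced by ATF4, averaged 32.9 ± 4.49 RPKM in null and 32.2 ± 2.78 RPKM in wild-type islets, and Ddit4, an inhibitor of mTOR signalling, 35.4 ± 4.89 RPKM in null and 31.0 ± 8.82 RPKM in wild-type islets (SD, n = 3 each). The 12 genes of ER calcium handling were split evenly, with a median of -0.02. The calcium pumps Atp2a2 and Atp2a3 averaged 221 ± 10.8 and 134 ± 8.45 RPKM in null islets, against 206 ± 12.6 and 127 ± 11.2 RPKM in wild-type islets (SD, n = 3 each).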

How the data were processed

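RNA of 6 islet libraries was made into TruSeq libraries, per the labels' protocols. The table deposited by the authors holds RPKM, 1 row per RefSeq transcript. The submitters' processing notes name STAR, bedtools, DESeq and build mm9. Versions, strand use and the handling of shared reads are not given in the sources used here. The table has 28129 rows, of which 117 are empty and 1 holds text in place of a number. Each of 21813 symbols was represented by its transcript of highest mean RPKM, and genes averaging at least 1 RPKM were tested.

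limma 3.58.1 (R 4.3.3) was run on log2(RPKM + 1) across 12652 genes, with group as the only term, eBayes with a mean trend and Benjamini-Hochberg adjustment at 0.05. Differences are null minus wild type, and the pseudocount understates those of low genes. The fit was tested on simulated data. Depth was estimated from low RPKM times transcript length (GENCODE M21, 92.6% of rows); 73.7% to 75.7% of these products lay within 0.1 of a whole read, so depths are estimates. Promoter sequences are from RefSeq, GRCm38.p6, another build than the table, matched by symbol. Figures used matplotlib 3.10.9. The genes and lists were chosen with earlier results of these data known. Genes given with all values were the highest of each role, up to 2 of each role with the smallest p, and those without overlap. Of each other list the 2 highest were named. Other members are given as means or ranges. Pdia6, Syvn1, Derl3, Trib3 and the values of all libraries for Atf3 were added after their values were seen. Alternatives concerned the pseudocount, filter, scaling, trend, an acinar covariate, transcripts and single libraries.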

Additional observations from a re-analysis of the deposited data

How the results depend on the processing

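None of the 33 genes and none of the other ER genes passed an adjusted p of 0.05 under any of the 14 alternatives, where the smallest adjusted p of the 33 was 0.265. The number of all genes past the threshold was 2. It was 4 without a filter, 1 with a minimum mean of 5 RPKM, 4 with totals taken without acinar and main hormone genes, 1 with the acinar mean as a covariate, and 1 to 5 with 1 library left out. The median difference of the 33 genes, -0.070, was -0.024 under median-ratio scaling, 0.108 with the acinar covariate and -0.115 to 0.006 with 1 library left out. The median over all genes stayed between -0.068 and 0.005 in the alternatives, so no scaling moved it by over 0.1. Of 265 values of the 19 genes described with all libraries, 251 kept their direction and 14 did not. Changing the filter or the trend leaves a gene's difference as it was, so those values could not change direction. Nor could the mean over transcripts for a gene with 1 row. Of the 19 genes, 7 kept their direction in every alternative. Trib3 had no value with a minimum of 5 RPKM. With the acinar covariate Hspa5 was at 0.08, Manf at 0.01, Pdia3 at 0.03, Pdia4 at 0.03, Pdia6 at 0.09, Derl2 at 0.01 and Atf4 at 0.12. With 1 library left out, the lowest and highest differences were -0.12 and 0.45 for Herpud1, -0.20 and 0.01 for Atf4, -0.05 and 0.34 for Derl3, -0.13 and 0.30 for Trib3, -0.22 and 0.41 for Ppp1r15a, and -0.01 and 0.18 for Wfs1. The cause was not tested. Under median-ratio scaling the groups did not overlap for 4 higher genes (Sel1l, Edem1, Ern1 and Eif2ak3) and 1 lower gene (Hsp90b1), beside 7.94% and 8.13% of all tested genes. With totals taken without acinar and hormone genes they did not overlap for 2 higher genes (Sel1l and Ern1) and 2 lower genes (Hsp90b1 and Ero1l), beside 2.05% and 13.2% of all tested genes. No paired analysis was possible because the labels tie no null animal to a wild-type animal. Depth is an estimate, and intervals reflect 3 animals a group.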
